A study of Homo sapiens with 12 samples.

Results

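Of the 842183 transcript positions measured by AlkAniline-Seq, 673 in 617 gene IDs were read only after METTL1 knockdown. Some neighbouring positions under different gene IDs held the same input values, so 1 site may be counted more than once. They were chosen by their own counts. Each had at least 1 read in every one of the 3 shMETTL1 libraries, at least 20 reads over the 3, and 0 reads in every one of the 3 shscramble libraries. These counts therefore describe the positions, and no test of them was made. The cells were LNCaP-AI, an androgen-independent derivative of the LNCaP prostate cancer line kept under androgen deprivation. One group carried a short hairpin RNA against METTL1 (shMETTL1) and the other a scrambled hairpin (shscramble), and both groups shared the line and the deprivation. Each group had 3 AlkAniline-Seq libraries and 3 input libraries, 12 in all. The sources give 1 hairpin and 1 cell line for this assay. The study speaks of biological replicates for its data in general, and the labels do not say whether these libraries came from separate cultures, so p-values measure the spread between these libraries.

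METTL1 is the catalytic subunit of the METTL1-WDR4 methyltransferase, which places N7-methylguanosine (m7G) in the variable loop of many tRNAs and has been linked to m7G inside mRNA. In AlkAniline-Seq, alkaline hydrolysis and aniline open the RNA chain at m7G, and the fragment that begins just after the modified base takes up the sequencing adapter. A modified base therefore appears as reads that pile up at a single position, and the input shows how many reads begin there without that enrichment. A loss of the enzyme is expected to remove such piles, and the positions described here are those where the opposite was counted. The 3102 positions with the mirrored pattern, read in every shscramble library with the same minimum sum and in no shMETTL1 library, serve as the point of comparison.

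The target of the hairpin is shown because the hairpin is the only difference between the groups that the study designed. This METTL1 target was read from the study's list of oligonucleotides, as the first 21 bases of the listed hairpin. The rest of the hairpin is not printed.

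shMETTL1 target: GGAATGTAGTCCATCTAAACT

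The level of METTL1 itself was not analysed here, and neither were the prostate markers of the line, because the deposited tables give Ensembl gene IDs without symbols or coordinates. For the same reason no sequence around the positions is printed.

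The AlkAniline-Seq libraries held between 1421551 and 2764417 reads, and the input libraries between 2783709 and 3258499. Library shscramble 1 stood apart. Where shscramble 2 or 3 had 50 or more reads at a position, shscramble 1 was also read in 99.9% to 100% of cases. Among the shMETTL1 libraries, that share was between 34.7% and 38.9%, and between shscramble 2 and 3 it was 39.1% to 51.2%. Without shscramble 1 the same choice gave 1223 positions in place of 673, without shscramble 2 it gave 926, and without shscramble 3 it gave 791. A rise was fixed in advance, since leaving out a control removes a condition, and only its size differed between libraries.

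The positions were a small share of those well read after knockdown. At 10591 positions every shMETTL1 library had a read and the sum reached 20, and 9918 of these also had a read in a control library. The remaining 673 were 6.35%. The mirrored pattern made up 18.2% of 17068 positions. The difference between the 2 shares was not tested. Library shscramble 1 enters both of them, and its part in the difference was not tested. As more reads were asked of the weakest library, the share fell on both sides. With 5 or more reads in every shMETTL1 library it was 1.73% (81 positions), with 10 or more 1.05% (34 positions) and with 20 or more 0.496% (11 positions). The corresponding values for the mirrored pattern were 5.97% (449), 3.98% (201) and 1.09% (33).

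Most of the positions owed their reads to a single knockdown library. The sum over the 3 libraries had a median of 85 reads and a maximum of 493, but the median position drew 92.9% of its reads from its strongest library. At 382 positions more than 90% of the reads came from 1 library, and at only 25 did the strongest library give less than 50%. The weakest library held exactly 1 read at 496 positions (73.7%), and both weaker libraries held exactly 1 read at 241 (35.8%). For the mirrored pattern these shares were 66.6% and 4.93%. The 2 patterns are not alike here, because shscramble 1 was read almost wherever shscramble 2 or shscramble 3 was deep. No shMETTL1 library stood in that relation to the others. The part of shscramble 1 in the lower mirrored shares was not tested, so they are no measure of reproducibility. The strongest library was shMETTL1 1 at 250 positions, shMETTL1 2 at 250 and shMETTL1 3 at 173. In reads, the 673 positions took 0.875% of shMETTL1 1, 1.01% of shMETTL1 2 and 0.708% of shMETTL1 3. No single library supplied the set, although single libraries supplied most positions in it.

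**Figure D1:**
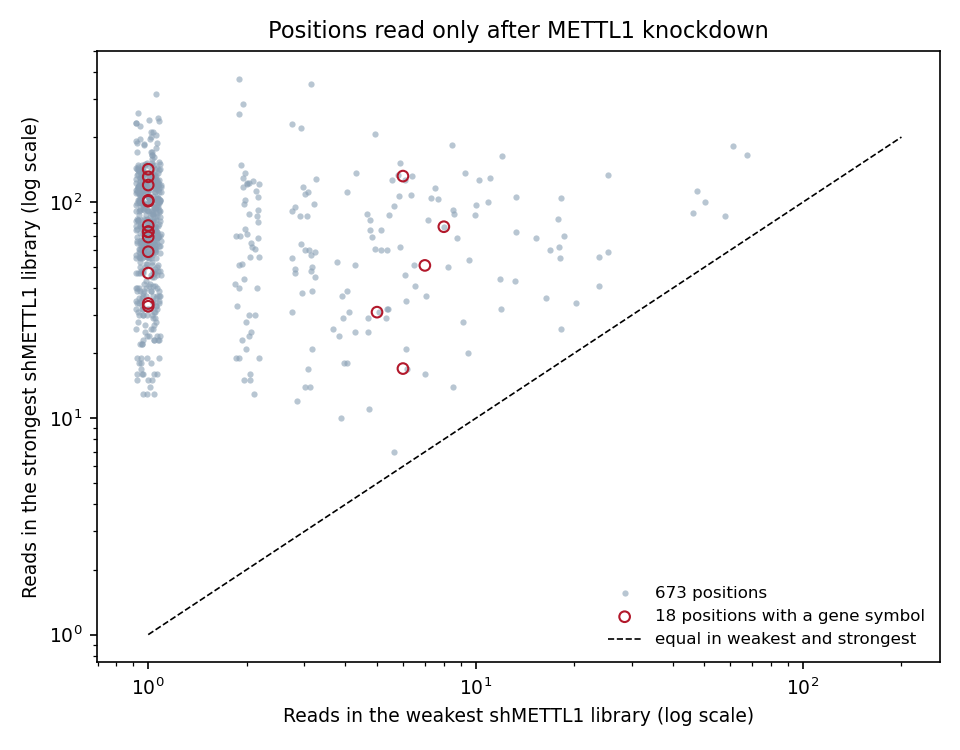
Reads at the 673 positions in the weakest (horizontal) and the strongest (vertical) of the 3 shMETTL1 libraries, both on log scales, with the weakest count spread slightly at random for display. Rings mark the 18 positions tied to a gene symbol, and the column at 1 read holds 496 positions.

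At the edge of the choice, 8 positions had a sum of exactly 20 and 11 of exactly 19, and with no minimum sum there were 952. A position just inside had 6, 7 and 7 reads in shMETTL1 1, 2 and 3, under control coverage of 61, 218 and 19 reads. A further one had 6, 10 and 4 reads, under control coverage of 0, 1 and 1. Of the positions just outside, 1 had 3, 10 and 6 reads under control coverage of 49, 23 and 0, and another 14, 3 and 2 reads with no control coverage.

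A count of 0 in the controls has a meaning only where reads covered the position. Coverage, the number of reads that span or begin at a position, was 0 in every shscramble library at 151 positions (22.4%). It was above 0 in 1 control library at 62, in 2 at 113 and in all 3 at 347 (51.6%). By library, shscramble 1 covered 499 of the positions, shscramble 2 covered 431 and shscramble 3 covered 399. The summed coverage had a median of 44 reads in the controls against 192 after knockdown, where the reads themselves are part of the coverage.

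The share of the coverage that began at the position was therefore compared with the share that 0 control reads still allow, taken as 3 counts over the summed control coverage. After knockdown the median share was 52.7%, and at 137 positions (20.4%) every covering read began there. Both shares rest on the counts that chose the positions, so the result is a description of depth and supports nothing. The knockdown share lay above the allowed control share at 449 positions (66.7%), and at or under it at 73 covered positions, where a difference was not detectable at this depth. At the 151 positions without control coverage no comparison could be made. For the mirrored pattern 61.5% lay above. These limits cover counting error only, since reads without molecular identifiers are not independent molecules.

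**Figure D2:**
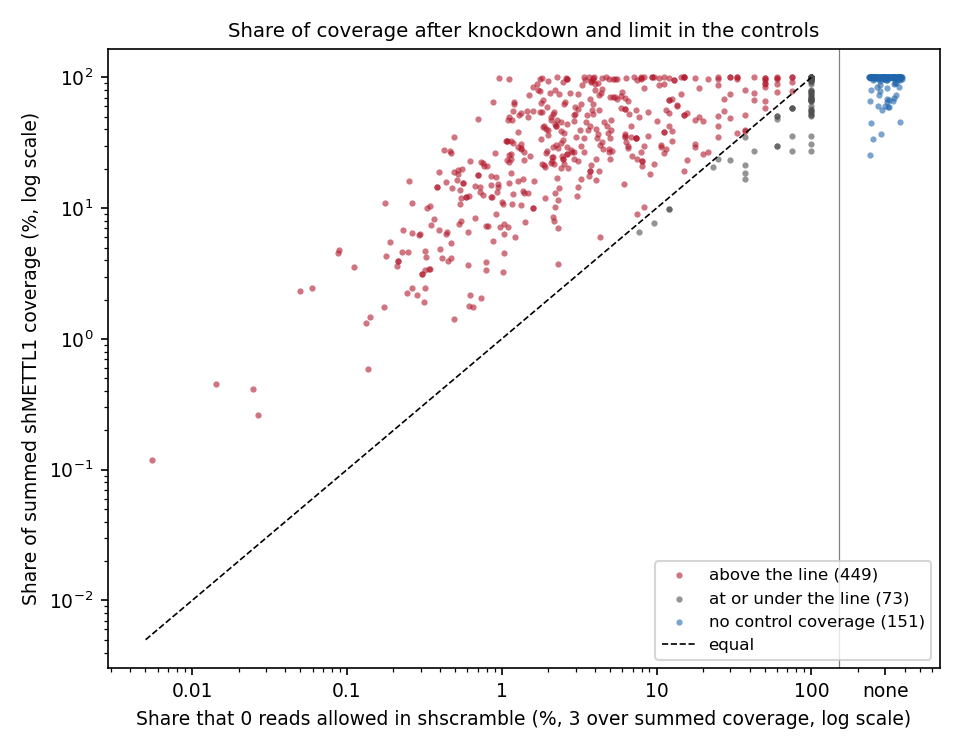
Share of the summed shMETTL1 coverage that began at each position (vertical, percent, log scale) against the share that 0 control reads allowed (horizontal, percent, log scale, 3 over the summed shscramble coverage, capped at 100). The 449 red points lie above the line of equality, the 73 grey points at or under it, and the 151 blue points on the right had no control coverage, all as a description of positions chosen by these counts.

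Single reads weighed heavily in the deposited share. At 236 positions (35.1%) at least 1 shMETTL1 library had exactly 1 covering read and that read began at the position, so that the deposited share was 100%. The exact 95% binomial interval of such a share runs from 2.5% to 100%. At 230 positions the shares of the 3 libraries lay within 2-fold of each other, including the 137 with 100% in each, and at the 34 positions with 10 or more reads in every library 12 did. The deposited fold, the share over that of the input, was set to the share plus 1 wherever the input share was 0. That was so for 1116 of the 2019 pairs of a position and a shMETTL1 library (55.3%), and in all 3 pairs for 178 positions.

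The positions best read in every knockdown library were taken to be those with the highest count in the weakest library, which does not rank them by evenness. Over the 12 highest, the weakest library held between 19 and 66 reads and the sum ran from 79 to 380. They lay in 12 gene IDs, none tied to a symbol. Of these, 9 were covered in all 3 control libraries and 1 in none.

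The highest of them, in ENSG00000123144, had 66, 149 and 165 reads in shMETTL1 1, 2 and 3, out of a coverage of 397, 350 and 348. The controls covered it with 94, 371 and 143 reads and had 0 reads there, which allows a share of up to 0.493%. The knockdown shares were 16.6%, 42.6% and 47.4%. The input had 1 read there in 1 shMETTL1 library and 1 in 1 shscramble library, at coverages of 160 to 466 reads.

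A position in ENSG00000198804 differed in kind, with a small share of a deep coverage. It had 86, 63 and 55 reads out of 18922, 14088 and 12249, which are 0.454%, 0.447% and 0.449%. The 3 knockdown libraries were thus nearly equal. The controls covered it with 6642, 9709 and 4524 reads and had 0, which allows 0.0144%. The input of both groups did have reads there, with 29, 34 and 1 in the shMETTL1 inputs and 61, 0 and 2 in the shscramble inputs.

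The positions were spread over many genes, where a site listed under more than 1 gene ID counts in each. Of the 617 gene IDs, 568 held 1 position, 43 held 2, 5 held 3 and 1 held 4. Their gene IDs had a median of 94 measured positions, against 32 over all 18569. The mirrored positions lay in 2427 gene IDs, and 241 gene IDs held both kinds, which is 39.1% of the former and 9.93% of the latter.

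Symbols were used for 24 of the 617 gene IDs, through the values of the study's own list of 238 genes with changed m7G and mRNA, of which 115 were found at exactly 1 position. Of the 673 positions, 18 were named through their own value and 29 lay in a named gene. The study chose that list on these libraries by its change in m7G, so the named positions are not a random draw from the 673, and their direction is no independent evidence. The weakest library held 1 read at 13 of the 18 (72.2%, against 73.7% of all 673), and both weaker ones did at 3 (16.7%, against 35.8%). Their sums ran from 35 to 229 reads. Control coverage was present in all 3 libraries at 12 of them and in none at 5.

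**Figure D3:**
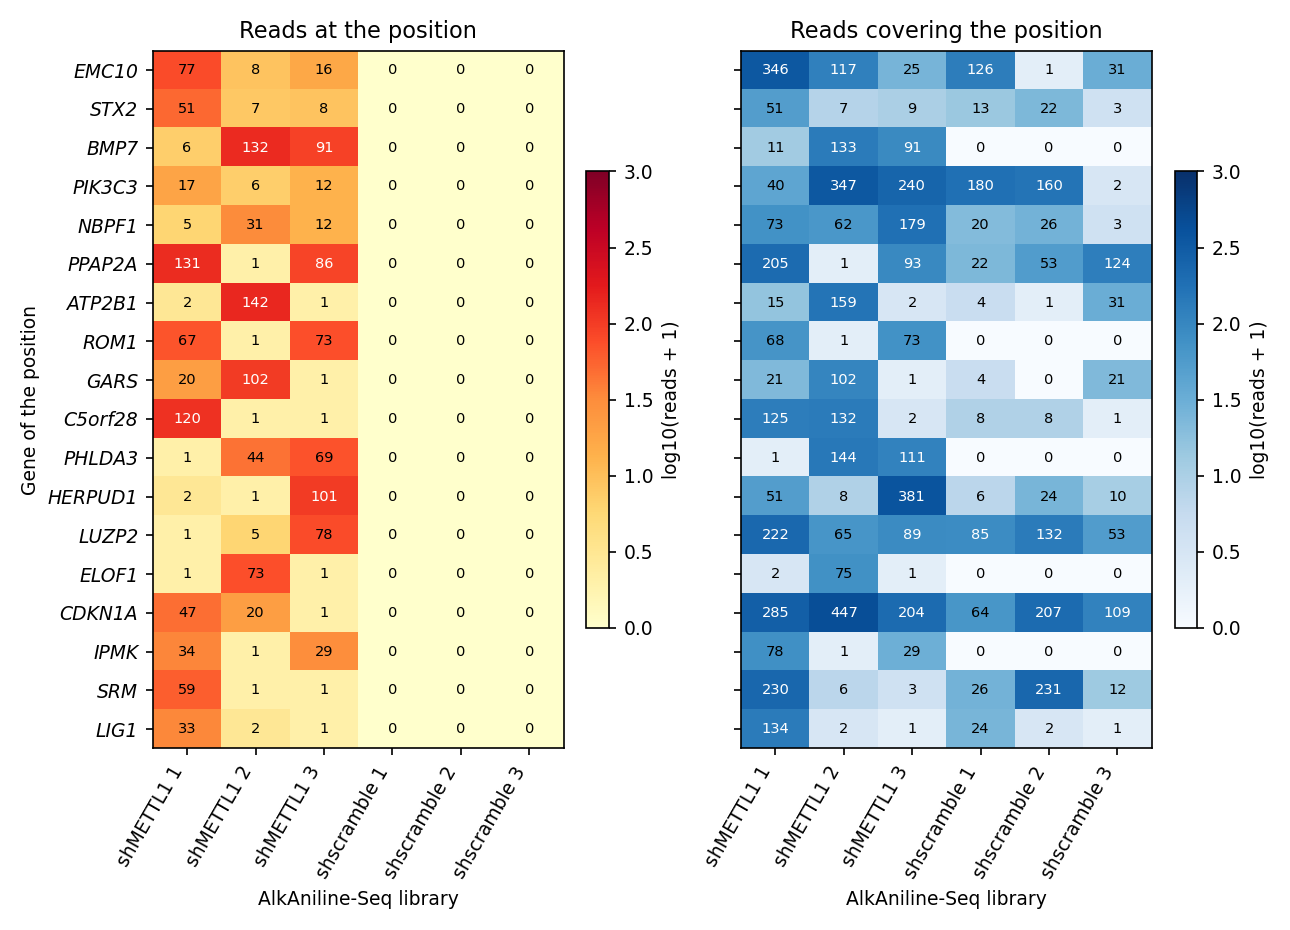
Reads at the position (left) and reads covering it (right) in the 6 AlkAniline-Seq libraries for the 18 positions tied to a gene symbol, as printed in each cell, with colour on a log10(reads + 1) scale. All shscramble cells on the left are 0 by the choice of the positions, and 5 genes have 0 on the right as well.

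Over the 114 genes tied to a symbol and used here, 24 (21.1%) held a position read only after knockdown, and the counts by gene group stand beside that share without a test. Among gene groups, 2 of the 3 named p53 targets held such a position, CDKN1A and PHLDA3. CDKN1A encodes p21, the cyclin-dependent kinase inhibitor. Its position had 47, 20 and 1 reads in shMETTL1 1, 2 and 3, out of a coverage of 285, 447 and 204. The controls covered it with 64, 207 and 109 reads, and the summed knockdown share of 7.26% compares with an allowed control share of 0.789%. By library the knockdown shares were 16.5%, 4.47% and 0.490%, so that of shMETTL1 3 lay under the allowed share. PHLDA3, a p53-induced repressor of AKT signalling, had 1, 44 and 69 reads, and no control library covered the position. For CDKN1A the controls were thus deep enough to set a limit, and for PHLDA3 they were not.

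ATF4 is the factor that switches on genes for amino acid supply in the integrated stress response. Of its 10 named targets, 4 held such a position. HERPUD1, which acts in the degradation of proteins from the endoplasmic reticulum, had 2, 1 and 101 reads at a control coverage of 6, 24 and 10. A further position in HERPUD1 had 71, 6 and 1 reads at a control coverage of 22, 48 and 118. These 2 positions were strongest in different libraries, shMETTL1 3 for the former and shMETTL1 1 for the latter. SESN2, a stress-induced inhibitor of mTORC1 signalling, had 74, 1 and 9 reads at a control coverage of 15, 21 and 32. SLC3A2 and SLC7A5 are the heavy and light chains of a transporter of large neutral amino acids. The position in SLC3A2 had 35, 3 and 1 reads at a control coverage of 9, 51 and 13. The position in SLC7A5 had 6, 29 and 5 reads under the deeper control coverage of 184, 403 and 351. In each of these positions the strongest knockdown library had at least 5.8 times the reads of the weakest.

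Among the aminoacyl-tRNA synthetases 1 of 3 named genes held such positions, GARS, which charges glycine onto its tRNA. One had 20, 102 and 1 reads at a control coverage of 4, 0 and 21, and the other 8, 88 and 13 reads at a control coverage of 7, 60 and 14. Both were strongest in shMETTL1 2. Among the androgen receptor targets 1 of 3 did, PPAP2A, an androgen-regulated phospholipid phosphatase. It had 131, 1 and 86 reads at a control coverage of 22, 53 and 124. The single read in shMETTL1 2 was also the whole coverage there.

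None of the 3 named genes of mitosis, the 4 of cholesterol and fatty acid synthesis, the 1 of the cytoskeleton and the 1 prostate luminal marker held such a position. In the other 13 lists no gene was tied to a symbol, so they have no value here.

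The remaining named positions fell in genes of varied function. BMP7, a secreted ligand of the TGF-beta family, had 6, 132 and 91 reads and no control coverage. ROM1, a tetraspanin of photoreceptor discs, had 67, 1 and 73 reads, and IPMK, an inositol polyphosphate kinase, 34, 1 and 29, both without control coverage. ELOF1, a transcription elongation factor, had 1, 73 and 1 reads, again without control coverage. In all 4, a count of 0 in the controls says nothing about the share of reads at the position.

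Control coverage was present for the others. EMC10, a subunit of the endoplasmic reticulum membrane complex, had 77, 8 and 16 reads at a control coverage of 126, 1 and 31. PIK3C3, the lipid kinase of autophagy, had 17, 6 and 12 reads at a control coverage of 180, 160 and 2. STX2, a syntaxin of the plasma membrane, had 51, 7 and 8 reads at a control coverage of 13, 22 and 3. These 3 were among the 5 named positions with more than 1 read in every knockdown library, together with BMP7 and NBPF1. NBPF1 had 5, 31 and 12 reads, and its value is uncertain because the gene has near-identical copies that can share reads.

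The rest rested on 1 library. ATP2B1, a calcium pump of the plasma membrane, had 2, 142 and 1 reads, and a further position in the same gene had 166, 1 and 2. SRM, the spermidine synthase, had 59, 1 and 1 reads, and C5orf28 had 120, 1 and 1. LIG1, the DNA ligase of replication, had 33, 2 and 1 reads, and LUZP2 had 1, 5 and 78. The library that held the reads was not the same one across these genes, nor across the positions of ATP2B1.

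Reads at other positions of the same genes, with the positions of both patterns left out, came from the same comparison and are given as a description. Over 616 gene IDs with a read elsewhere, the difference of shMETTL1 minus shscramble had a median of 0.03 in log2(CPM + 1), against -0.16 over all gene IDs with a read. For CDKN1A, reads elsewhere reached 357, 350 and 307 CPM in shMETTL1 1, 2 and 3 and 190, 126 and 195 CPM in the controls. PHLDA3 had 133, 71.3 and 84.3 CPM against 43.0, 7.50 and 42.3. GARS had 673, 1108 and 1011 CPM against 596, 303 and 350. In these 3 genes the groups did not overlap, and of the 24 named genes they did not overlap in 1 more, EMC10, with 299, 133 and 108 CPM against 107, 96.4 and 47.5. Over all 17556 gene IDs with a read elsewhere, 4.74% were apart with shMETTL1 higher and 7.48% with shMETTL1 lower, and over the 616 gene IDs 54 and 41 were, 8.77% and 6.66%. Since the choice of the positions used the same comparison, nothing is read from these counts. PRKAR1A, a regulatory subunit of protein kinase A, held 2 of the positions and had 198, 43.9 and 33.4 CPM elsewhere, against 200, 121 and 348 in the controls. There the groups overlapped, with the controls mostly higher.

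The input libraries took no part in the choice of the positions and give the only independent measure of them. Of the 673 positions, 563 (83.7%) had a read in at least 1 input library, against 76.4% of all positions. In 351 both input groups had a read, in 144 only the shMETTL1 input, in 68 only the shscramble input and in 110 neither. Thus 419 positions (62.3%) had reads beginning there in the control cells, in the libraries made without the enrichment. In all 6 input libraries 33 of the 673 positions were read. Over all positions the counts for both, shMETTL1 only, shscramble only and neither were 144625, 342775, 156005 and 198778. Over the mirrored positions they were 1271, 734, 395 and 702. Of the 563 positions with an input read, 25.6% had none in the shscramble input. The corresponding share was 30.6% for the mirrored positions and 53.3% for all positions. The difference between these shares was not tested.

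By library, 55.3%, 37.1% and 41.8% of the positions had a read in shMETTL1 input 1, 2 and 3, and 41.6%, 21.1% and 35.4% in shscramble input 1, 2 and 3. The shares over all positions were 37.0%, 18.3% and 19.6%, and 18.8%, 8.56% and 18.3%. The groups overlapped, and the positions were above the share of all positions in every input library. So were the mirrored positions, at 44.8%, 30.5% and 33.4% in the shMETTL1 inputs and 32.0%, 18.6% and 29.5% in the shscramble inputs. The inputs covered 62.6% to 86.5% of the positions and 30.5% to 63.1% of all positions. Scaled to the library total, they took between 1242 and 1512 CPM, with the shMETTL1 inputs at 1512, 1288 and 1272 and the shscramble inputs at 1333, 1342 and 1242. As a share of the reads covering them, reads at the positions made up 2.93% to 3.79% in the inputs, below the 6.43% to 7.76% over all positions.

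**Figure D4:**
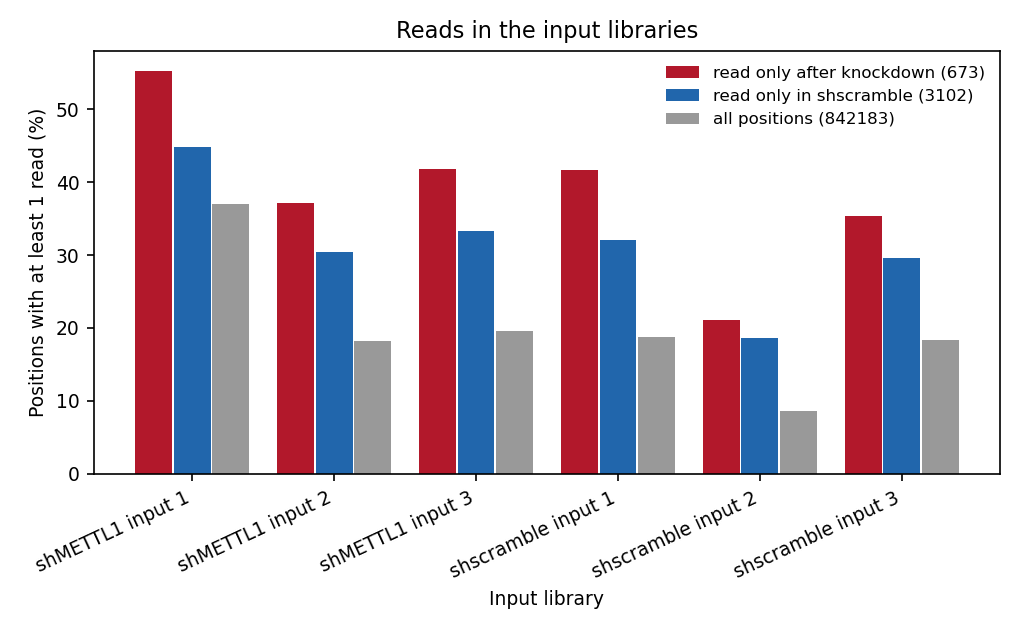
Percent of positions with at least 1 read in each of the 6 input libraries, for the 673 positions read only after knockdown (red), the 3102 read only in shscramble (blue) and all 842183 (grey). The red bars are the highest in every library, from 21.1% to 55.3%, and shscramble input 2 is the lowest for all 3 sets.

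At single positions the input gave no call. With edgeR's quasi-likelihood test and Benjamini-Hochberg adjustment, 0 of the 20840 positions with enough input reads had an adjusted p under 0.05, and so 0 of the 58 tested here (background 0%). At an unadjusted p under 0.05 there were 1169 of the 20840. DESeq2 called 15 higher and 22 lower (0.0842% and 0.123% of 17821 with an adjusted p), none of them among the 58. Not all of the 58 had an adjusted p there. At an unadjusted p under 0.05, edgeR had 1 of the 58 higher and 2 lower, against 2.68% and 2.93% of all tested. The median log2 fold change of shMETTL1 input over shscramble input was 0.17 over the 58 and 0.13 over all. The other 615 positions had too few input reads to be tested. Among the 58, some neighbouring positions under different gene IDs had the same values in every input library. Each of them was counted.

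Summed over genes, the input gave no call either. Of the 617 gene IDs, 609 were among the 11740 tested, and 327 of them (53.7%) lay above the 80th percentile of gene IDs by input reads, which describes their depth and not a level per length. None of the 11740 had an adjusted p under 0.05 in edgeR (735 at an unadjusted p under 0.05). DESeq2 called 12 higher and 19 lower (0.107% and 0.169%), none among the 609, not all of which had an adjusted p there. At an unadjusted p under 0.05, 10 of the 609 were higher and 42 lower after knockdown, against 1.64% and 4.62% of all gene IDs tested. The median log2 fold change was -0.20 over the 609 and -0.04 over all. The sign of these medians depended on the scaling, while the median over the gene IDs here stayed below that over all in every fit. With library size alone the medians were 0.12 and 0.22, with 27 higher and 18 lower against 2.5% and 1.54% of all gene IDs tested. Without shscramble input 2 there were 40 higher and 27 lower of 611, against 3.66% and 3.43%. In this bulk RNA, a change in the number of cells that express a gene and a change per cell cannot be told apart.

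Among the 24 named genes, the input of CDKN1A was 215 ± 34.0 CPM (SD, n = 3) after knockdown and 66.6 ± 15.1 in the controls. Its libraries were at 235, 176 and 235 CPM against 71.6, 49.6 and 78.5, without overlap. The log2 fold change was 1.69 ± 0.48 (SE) at an adjusted p of 0.747 in edgeR. HERPUD1 was at 378, 527 and 546 CPM against 198, 195 and 197, a log2 fold change of 1.30 ± 0.36 (adjusted p = 0.747, edgeR). GARS was at 652, 817 and 807 CPM against 487, 462 and 320, a log2 fold change of 0.84 ± 0.32 (adjusted p = 0.765, edgeR). None of the 3 passed the test across all gene IDs, although the libraries of the groups were apart in each.

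In 9 of the 24 every shMETTL1 input lay above every shscramble input, and in 1, LUZP2, every one lay below. Over all gene IDs tested 7.64% were apart in the former direction and 5.84% in the latter, and over the 609 gene IDs 46 and 56 were, 7.55% and 9.2%. The 24 were picked by the study for a change in mRNA as well, so their 9 cannot stand for the rest. With TMM scaling, on which the sign of the medians above depended, the share of the 609 was near that of all gene IDs in the higher direction. It was above that of all gene IDs in the lower direction. Besides CDKN1A, HERPUD1 and GARS, the 9 were BMP7, NBPF1, PHLDA3, ROM1, SESN2 and SLC3A2.

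PHLDA3 was at 48.3, 52.5 and 50.9 CPM against 26.6, 0.491 and 20.6, a log2 fold change of 1.66 ± 1.12 (adjusted p = 0.849, edgeR). SESN2 was at 62.8, 70.0 and 68.8 CPM against 31.4, 0.491 and 11.5, a log2 fold change of 2.21 ± 1.09 (adjusted p = 0.766, edgeR). In both the lowest value was that of shscramble input 2. The log2 fold change of SESN2 was 3.43 without shscramble input 1 and 1.65 without shscramble input 2, and that of PHLDA3 was 2.23 and 1.10. LUZP2 was at 66.7, 58.0 and 43.0 CPM against 85.9, 435 and 124, a log2 fold change of -1.94 ± 0.61 (adjusted p = 0.747, edgeR), which was -0.91 without shscramble input 2. SLC7A5 had 11828 ± 5999 CPM (SD, n = 3) against 15724 ± 10888, with overlapping libraries and a log2 fold change of -0.41 ± 0.42. PPAP2A had 123 ± 45.7 CPM against 187 ± 178, a log2 fold change of -0.60 ± 0.61. The spread between the shscramble inputs exceeded the difference in both.

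**Figure D5:**
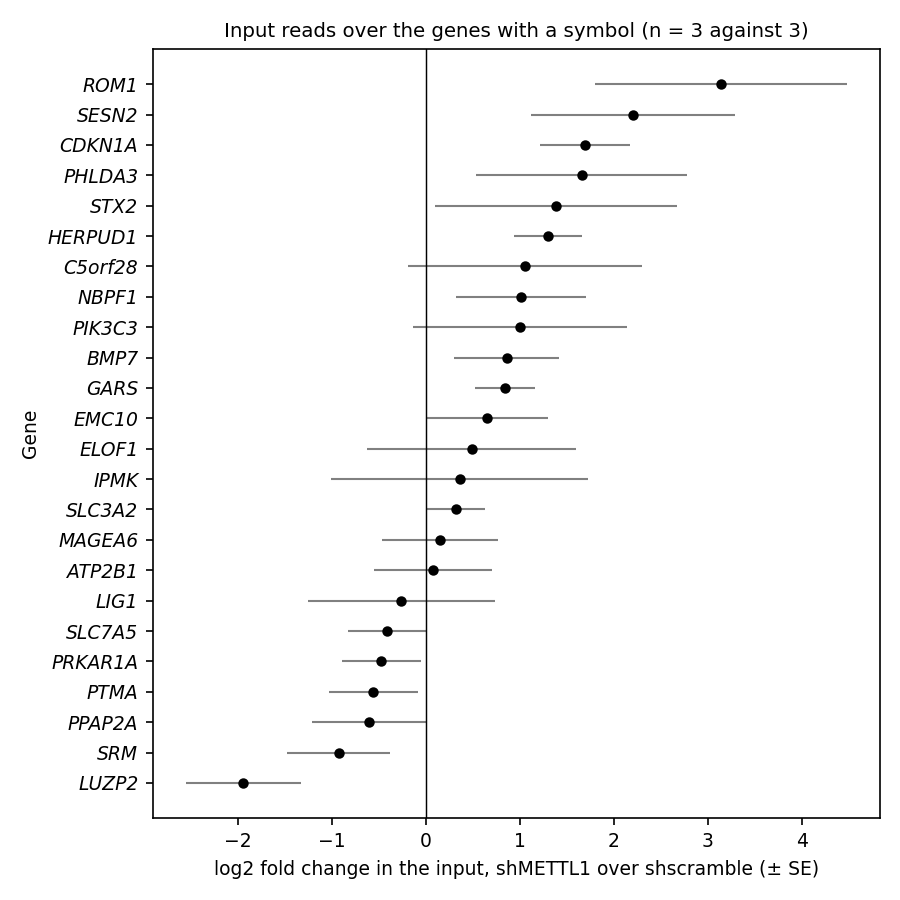
Log2 fold change of input reads, shMETTL1 over shscramble (horizontal, points with SE bars from edgeR, 3 libraries a group), for the 24 genes with a symbol that hold a position read only after knockdown. Of the points, 17 lie above 0, from -1.94 for LUZP2 to 3.14 for ROM1, and none passed the adjusted test.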

How the data were processed

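AlkAniline-Seq and input libraries of LNCaP-AI cells were analysed at 842183 positions, matched between tables by row order, which carries the same gene IDs in every table. Per position, the authors deposited the read count, the coverage signal (reads over the position, whole numbers), the fraction of the coverage that the count makes up, and its ratio, or fold, to the fraction in the input. The build is hg19, and cutadapt 1.9.1, Bowtie2 2.2.4 and bedtools 2.24 are listed, without roles, in the notes the submitters gave on processing. The sources used here give neither parameters nor the gene annotation. The fraction was checked to equal count over coverage at every position.

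The positions and the gene lists were chosen with earlier results of these data known. All AlkAniline-Seq values are descriptions. Input counts were tested across all positions and all gene IDs with edgeR 4.0.16 (R 4.3.3, TMM, quasi-likelihood test, minimum count 10, minimum total 15, Benjamini-Hochberg, threshold 0.05), with DESeq2 1.42.0, library size alone, no filter, a replicate block and each library left out as alternatives. CPM in the input follow TMM scaling. With 3 libraries a group the precision was low. In simulated counts for gene IDs, 0 of 45, 6 of 46, 16 of 45 and 24 of 43 tested genes changed 2-, 4-, 8- and 16-fold were called, with 3 false calls among 11740. For positions, 0 of 32, 0 of 36, 0 of 32 and 1 of 35 were called.

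Symbols came only from matching the folds in the study's gene list to the computed folds (relative tolerance 2e-08), as a key and not for their values, and 1 tied gene is not reported here. Of the 18569 gene IDs, 0 could be matched to the reference table used here. The genes named are the 12 positions with the highest weakest count (2 by ID), the positions at the edge of the sum, and those in listed or tied genes. The choice to name every tied position was made after its values were seen. Python 3.11.15 with numpy 2.4.6, pandas 2.3.3, scipy 1.17.1 and matplotlib 3.10.9 handled the tables.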

Additional observations from a re-analysis of the deposited data

How the results depend on the processing

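The number of positions read only after knockdown moved with the choice, in part in a direction fixed in advance. Allowing control reads or leaving out a control could only raise the number. Asking for more reads in each shMETTL1 library could only lower it. It was 126 with 3 or more reads in each shMETTL1 library and 1291 with up to 1 read allowed in each control, and between 791 and 2975 with 1 library left out, highest without shMETTL1 replicate 2 (2711 without replicate 3, 2243 without replicate 1). Those with no control coverage, 151 in the report, were 261 when fewer than 10 covering reads counted as none, and between 174 and 846 with 1 library left out (846 without shMETTL1 replicate 2, 773 without replicate 3, 719 without replicate 1, 259 without shscramble replicate 1).

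Input calls over all positions, 0 in the report, were 37 with DESeq2 and 0 to 162 with 1 input library left out (162 without shscramble input 3, 131 without shscramble input 1). Over gene IDs they were 31 with DESeq2, 95 with no filter and 0 without any 1 library. The 95 were of 17939 tested, 94 of them lower after knockdown. Among the 617 gene IDs of these positions 8 were called, all lower. Same-numbered input libraries correlated by -0.03 to 0.06 in their deviations, and differently numbered ones by -0.07 to 0.05. With 3 libraries a group and this spread, the values cannot decide whether the numbers pair the libraries. With the replicate block 6 positions and 2 gene IDs were called. Of the named genes, 8 turned sign in the input, none past the threshold. Their log2 fold changes were ATP2B1 -0.34 and MAGEA6 -0.17 with DESeq2, SLC7A5 0.015 with library size alone and LIG1 0.26 with the replicate block. With 1 input library left out they ran from -1.03 to 0.54 for PPAP2A, -0.41 to 1.06 for ATP2B1, -0.78 to 0.31 for SLC7A5, -0.79 to 0.70 for LIG1, -1.36 to 0.27 for SRM, -0.068 to 1.46 for ELOF1, -0.21 to 1.22 for IPMK and -0.19 to 0.53 for MAGEA6. The cause was not tested. Depth was a limit, as 615 of the positions had too few input reads to test, and so was the spread between input libraries.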

Other observations

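The positions in SLC3A2 and PRKAR1A had many input reads, in contrast to most. In SLC3A2, a chain of an amino acid transporter, the shMETTL1 inputs held 26, 89 and 40 reads and the shscramble inputs 0, 1 and 37. In PRKAR1A, a subunit of protein kinase A, 1 position held 9, 7 and 21 reads against 25, 313 and 42, although no shscramble AlkAniline-Seq library had a read there under coverages of 65, 274 and 68. Its AlkAniline-Seq reads after knockdown were 2, 171 and 1. Of the 18 named positions, 6 had input reads in both groups, 4 in the shMETTL1 inputs alone, 4 in the shscramble inputs alone and 4 in neither. The shMETTL1 inputs alone held 41, 11 and 6 reads for BMP7, 0, 82 and 36 for GARS, 22, 9 and 0 for ELOF1 and 9, 0 and 0 for PIK3C3. The shscramble inputs hardly covered the first 3, with 1, 0 and 4 reads for BMP7, 0, 0 and 0 for GARS and 1, 0 and 0 for ELOF1. They covered PIK3C3 with 40, 7 and 14. For GARS the deposited folds over input were 1.95, 1 and 1.06 in shMETTL1 1, 2 and 3. The shscramble inputs alone held 0, 0 and 32 reads for HERPUD1 and 1 read in all for each of ATP2B1, C5orf28 and ROM1. The shMETTL1 inputs covered HERPUD1 with 56, 12 and 11 reads, C5orf28 with 6, 26 and 0, and ATP2B1 and ROM1 with 1, 0 and 0 each.

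PTMA, which encodes prothymosin alpha and has processed copies elsewhere in the genome that can share its reads, had 1, 2 and 95 reads at its position, and MAGEA6, a cancer-testis antigen with close paralogs, had 1, 19 and 7. Both values are uncertain for that reason.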
